A study of Arabidopsis thaliana with 9 samples.

Results

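The loci described here are the genes of the mitochondrial genome of Arabidopsis thaliana, taken as every locus of the deposited count table whose identifier starts with ATMG. They were 146 of the 33602 loci in the table. RNA was sequenced from whole seedlings of 2 lines named as alleles of EMB1579, which the labels also call rsa1, and of the wild type Col-0 that both lines share as background. The series asked how EMB1579 acts on genes of root growth and development. Seeds of each genotype were stratified for 3 days and grown for 6 days at 20 °C on diluted Murashige and Skoog medium, and no treatment set the groups apart. The groups were 3 libraries labelled emb1579-1, 3 libraries labelled emb1579-3 and 3 libraries labelled Col-0, of which replicate 3 is left out of every comparison, so that Col-0 has n = 2. The labels give neither the lesion of either line nor the number of seedlings behind a library. The 3 columns taken as emb1579-3 carry another number in their prefix than the labels give for that line, and they were assigned to it because no other genotype remained, which leaves it possible that another, undescribed line is behind them. EMB1579 stood at 46.8, 48.9 and 47.6 CPM (a locus's count relative to the scaled total of its library) in the libraries labelled emb1579-1 and at 2.11, 1.08 and 1.13 CPM in those of emb1579-3, against 48.6 and 48.9 CPM in those of Col-0. The transcript count set emb1579-3 apart from Col-0 and did not do so for emb1579-1.

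Plant mitochondria keep a genome of their own, which encodes subunits of the respiratory chain and of ATP synthase, factors that attach heme to c-type cytochromes, some ribosomal proteins, and ribosomal and transfer RNAs. Nearly all other mitochondrial proteins are encoded in the nucleus and imported. In the Col-0 strain a long stretch of mitochondrial DNA also lies in the nuclear genome, on chromosome 2 near the centromere, so that many mitochondrial genes have a nuclear copy that differs by few bases or by none. The count table holds identifiers only. Names were therefore given only to ATMG loci that the TAIR10.1 annotation names as the match of such a nuclear copy. It did so for 53 loci in 55 pairs, and 24 of the 53 loci had a description other than unknown protein.

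The 8 libraries held 24.1 M to 37.5 M counts each, where M is the SI prefix mega, with the 2 Col-0 libraries the deepest. Shoot markers were present in every library, with a sum for 3 genes of 9419 to 10858 CPM in emb1579-1, 9717 to 10796 CPM in emb1579-3 and 10237 to 11973 CPM in Col-0. Root markers were present too, with a sum for 4 genes of 21.6 to 28.0 CPM in emb1579-1, 21.6 to 27.7 CPM in emb1579-3 and 33.9 to 34.0 CPM in Col-0. The root markers CASP1 and TIP2;3 and the shoot marker LHCA3 were lower in both lines, and the other 4 of these 7 genes did not pass the test in either. The 3 seed and 3 flower markers reached at most 0.51 CPM in any library. Whether the share of root or shoot cells has a part in the differences below was not tested, and in whole seedlings fewer cells of a type and less RNA per cell cannot be told apart.

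The mean share of ATMG loci was slightly higher in both lines than in Col-0, and the difference did not pass the test. Their share of all counts was 15.3%, 17.04% and 18.2% in emb1579-1 and 16.6%, 17.7% and 16.2% in emb1579-3, against 15.9% and 15.8% in Col-0. The emb1579-1 libraries lay on both sides of Col-0, while each emb1579-3 library lay above Col-0 by a small margin. With chloroplast counts left out of the total, the share was 21.99%, 24.7% and 25.9% in emb1579-1 and 24.5%, 25.7% and 23.1% in emb1579-3, against 24.05% and 23.7% in Col-0, and both lines overlapped with Col-0. The means were 16.8% ± 1.45 in emb1579-1 and 16.8% ± 0.794 in emb1579-3 (SD, n = 3 each), against 15.9% ± 0.112 in Col-0 (SD, n = 2). Exact two-sided permutation tests gave p = 0.6 for emb1579-1 and p = 0.2 for emb1579-3 against Col-0, where 0.2 is the smallest p that 3 against 2 libraries can give. Between emb1579-3 and emb1579-1 the exact permutation test gave p = 1, with 0.1 the smallest possible. Adjusted over the 27 tests of library shares, these p-values were 0.736, 0.415 and 1.

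Most of that share came from 3 loci, ATMG00020, ATMG01390 and ATMG00030, which no note describes. Together they held 96.6%, 96.7% and 96.9% of the ATMG counts in emb1579-1 and 96.96%, 97.3% and 96.5% in emb1579-3, against 97.4% and 97.4% in Col-0. ATMG00020 and ATMG01390 are on a list of ribosomal RNA loci compiled from general knowledge, which no note could check. The 3 loci of that list held 86.5% to 87.7% of ATMG counts in the 8 libraries. The ATMG share was thus largely the share of that list, and whether ribosomal RNA was depleted is not stated. ATMG00020 alone held 46.3%, 50.4% and 48.2% of ATMG counts in emb1579-1 and 50.6%, 49.4% and 46.99% in emb1579-3, against 49.9% and 50.9% in Col-0. ATMG01390 held 41.4%, 36.5% and 38.7% in emb1579-1 and 36.3%, 37.8% and 39.5% in emb1579-3, against 37.4% and 36.3% in Col-0. Ranked by ATMG00020 the 8 libraries stood in the reverse order of ATMG01390, both being shares of 1 sum, and the genotypes overlapped for both loci. ATMG00030 averaged 9.56% ± 0.531 in emb1579-1 and 10.08% ± 0.0566 in emb1579-3 (SD, n = 3 each), against 10.09% ± 0.0121 in Col-0 (SD, n = 2). Each emb1579-1 library was below both Col-0 libraries for ATMG00030, and the exact permutation test gave p = 0.2, the smallest possible and 0.415 after adjustment. Each emb1579-3 library was also above all emb1579-1 libraries for ATMG00030, by 0.52 percentage points in the means, with p = 0.1 in the exact permutation test, the smallest possible and 0.415 after adjustment.

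The other 143 loci shared what was left, and here both lines lay above the wild type. They took 0.516%, 0.559% and 0.567% of all counts in emb1579-1 and 0.506%, 0.474% and 0.558% in emb1579-3, against 0.408% and 0.418% in Col-0. No library of either line overlapped with Col-0. The differences of the means were 0.13 percentage points for emb1579-1 and 0.10 percentage points for emb1579-3, each with p = 0.2 in the exact two-sided permutation test, the smallest possible and 0.415 after adjustment. The 2 comparisons use the same Col-0 libraries and are not independent. Chloroplast loci took less in every library of the lines, at 30.6%, 31.0% and 30.0% of all counts in emb1579-1 and 32.1%, 30.9% and 29.9% in emb1579-3, against 33.7% and 33.5% in Col-0. The part of this lower chloroplast share in the share of the 143 loci was not tested.

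**Figure D1:**
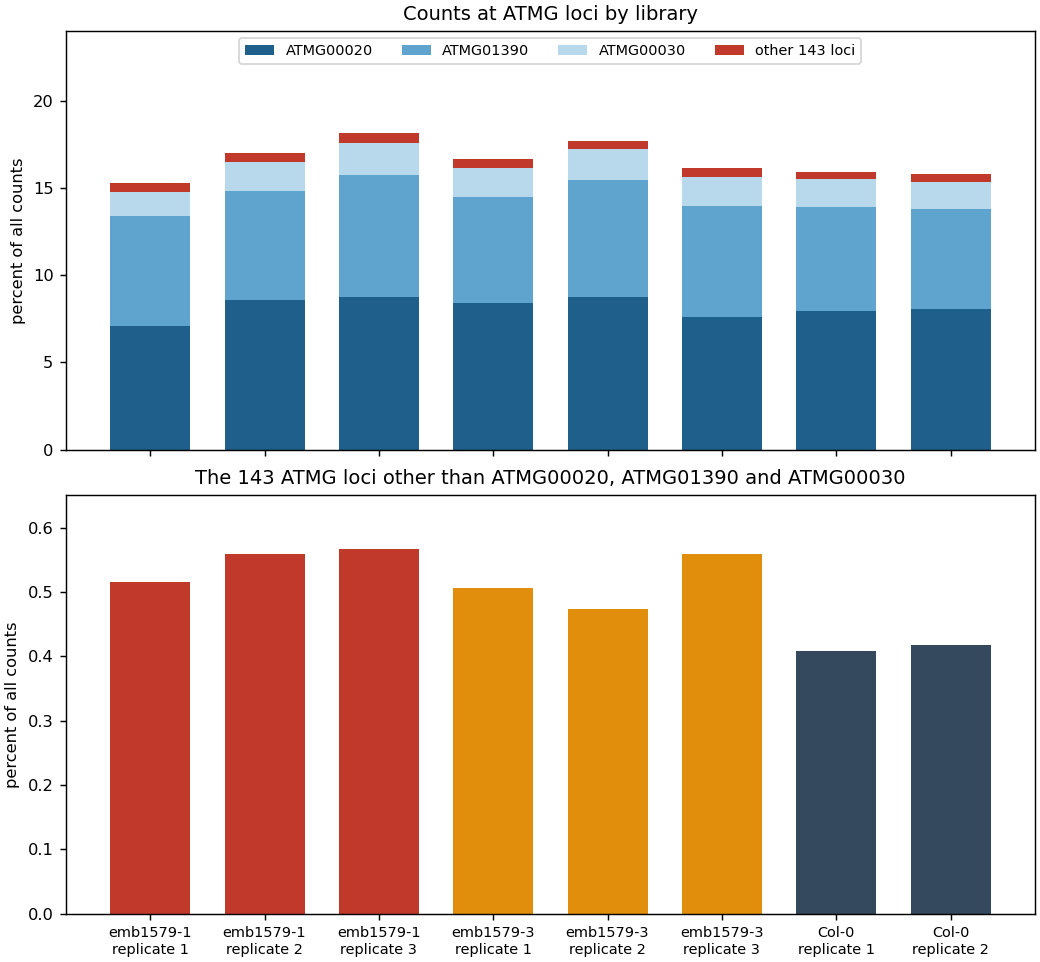
Percent of all counts at ATMG loci in each of the 8 libraries, stacked for ATMG00020, ATMG01390, ATMG00030 and the other 143 loci (upper panel), and the other 143 loci alone on their own scale (lower panel). The full bars run from 15.3% to 18.2% with Col-0 among the low ones, while in the lower panel each line stands above the 0.408% and 0.418% of Col-0.

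Below these 3 loci the level fell steeply. Levels of single loci are given as CPM on totals scaled by TMM factors. They are not corrected for gene length, so the order of the loci is an order of counts and not of transcripts. ATMG01360, the fourth highest, stood at 917, 1055 and 1013 CPM in emb1579-1 and 962, 952 and 885 CPM in emb1579-3, against 863 and 815 CPM in Col-0, so that both lines were above Col-0. It did not pass the test in either line, with log2 fold changes of 0.25 (SE 0.10, adjusted p = 0.0893) and 0.15 (SE 0.10, adjusted p = 0.299). ATMG00090, ATMG00080, ATMG00640, ATMG00070 and ATMG00160 followed with means of 341 to 534 CPM over the 8 libraries, and ATMG00650 came next with 175 CPM. Neighbours in this order overlapped from ATMG00090 down to ATMG00160, while ATMG00030, ATMG01360, ATMG00090 and ATMG00650 each had a highest library below the lowest library of the locus above. ATMG00650 and ATMG00160 did not pass the test in either line, with log2 fold changes between -0.04 and 0.07. ATMG00070 passed it in both lines, with log2 fold changes of 0.33 in emb1579-1 (SE 0.10, adjusted p = 0.0328) and 0.30 in emb1579-3 (SE 0.10, adjusted p = 0.0492), and the calls were lost in 4 and 7 of the 8 fits that leave out 1 library.

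For single loci the fit of edgeR across the whole table tested 20668 loci. Of the 146 members, 88 passed its filter on low counts, which asks for about 0.357 CPM in 2 libraries, and 85 of the 88 reached that level in libraries of all 3 genotypes. In emb1579-1, 25 members were higher than in Col-0 and 0 were lower at an adjusted p under 0.05. In emb1579-3, 16 were higher and 0 were lower. Over all loci tested, 8.27% were called higher and 9.54% lower in emb1579-1, and 9.95% were called higher and 10.3% lower in emb1579-3. For both lines the members' share of higher calls was thus above that of all loci, and the share of lower calls below it. The median log2 fold change of the 88 members was 0.22 in emb1579-1 and 0.17 in emb1579-3, beside 0.0018 and -0.0024 over all loci tested. Of the 88 members, 40 in emb1579-1 and 35 in emb1579-3 had each library of the line above both Col-0 libraries, where 21.8% and 24.2% of all loci tested did. Altogether 27 members were called in at least 1 line and 14 in both, with the same Col-0 libraries on the other side.

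These counts moved with single libraries. The share of all loci called is not given for the fits below, and fewer libraries can make a call harder to reach at any locus. The counts thus do not show that members lose more calls than other loci. In emb1579-1 the 25 calls became 16 without emb1579-1 replicate 2 or without emb1579-1 replicate 3, and 11 without Col-0 replicate 2. In emb1579-3 the 16 calls became 9 without emb1579-3 replicate 3 and 7 without Col-0 replicate 2. Without Col-0 replicate 1, 1 member was called lower in each line, beside 20 higher in emb1579-1 and 10 higher in emb1579-3. With the library labelled Col-0 replicate 3 added, 0 members were called in either line. The EMB1579 level of that library, 1.70 CPM, goes against its label, but rests on very few reads, as the library held 1179413 counts. Leaving out each of the 8 libraries in turn, 11 of the 25 calls in emb1579-1 and 5 of the 16 in emb1579-3 passed the test every time. The 5 loci kept in emb1579-3, all also kept in emb1579-1, were ATMG00090, ATMG00110, ATMG00290, ATMG00690 and ATMG01090.

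Among loci with a description, the ribosomal protein S4 locus ATMG00290, a part of the small subunit of the mitochondrial ribosome, had the highest called fold change in both lines. It stood at 6.69, 8.31 and 6.71 CPM in emb1579-1 and at 7.31, 6.23 and 7.64 CPM in emb1579-3, against 4.11 and 4.05 CPM in Col-0. Each library of both lines was above both Col-0 libraries. The log2 fold change was 0.83 (SE 0.15, adjusted p = 0.000663) in emb1579-1 and 0.79 (SE 0.15, adjusted p = 0.000871) in emb1579-3. ATMG00980, described as a protein of the S12/S23 family of the small ribosomal subunit, stood at 11.2, 14.6 and 16.01 CPM in emb1579-1 and 12.1, 9.59 and 11.99 CPM in emb1579-3, against 9.66 and 11 CPM in Col-0. Its rise in emb1579-1 passed the test, with a log2 fold change of 0.43 (SE 0.14, adjusted p = 0.0499), and was lost in 6 of the 8 fits that leave out 1 library. It was not called in emb1579-3 (adjusted p = 0.615), and the difference between the lines did not (adjusted p = 0.457). ATMG00560, described as a nucleic acid-binding protein, has its nuclear copy aligned over the gene annotated as rpl2 in the TAIR10.1 mitochondrial genome, the gene of a protein of the large ribosomal subunit. Its level was 42.7, 50.3 and 52.6 CPM in emb1579-1 and 44.8, 44.1 and 51.0 CPM in emb1579-3, against 36.7 and 35.1 CPM in Col-0, with no overlap between either line and Col-0. The rise on the log2 scale was 0.43 in emb1579-1 (SE 0.10, adjusted p = 0.00406) and 0.38 in emb1579-3 (SE 0.10, adjusted p = 0.00939), and the locus lost both calls without Col-0 replicate 2. ATMG01270, described as ribosomal protein S7, reached at most 0.996 CPM in any of the 8 libraries and was not called.

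NADH dehydrogenase, or complex I, feeds electrons from NADH into the respiratory chain, and 3 loci carried its name. ATMG01275 is described as NADH dehydrogenase 1A, and its nuclear copy aligned over the gene annotated as nad1. It stood at 19.6, 16.3 and 21.2 CPM in emb1579-1 and 14.9, 15.3 and 19.5 CPM in emb1579-3, against 13.3 and 10.8 CPM in Col-0. Both lines lay above Col-0 in each library, with log2 fold changes of 0.66 in emb1579-1 (SE 0.14, adjusted p = 0.00439) and 0.46 in emb1579-3 (SE 0.14, adjusted p = 0.0312). Both calls were lost without Col-0 replicate 2, and that of emb1579-3 also without emb1579-3 replicate 3. The locus may be only a part of nad1, since the list of complex I below names ATMG01120 and ATMG00516 as NAD1B and NAD1C. ATMG01120 was not called in either line (adjusted p = 0.131 and 0.0991), and ATMG00516 was called in emb1579-1 only (adjusted p = 0.0345 and 0.237). ATMG01320 is described as NADH dehydrogenase 2B, and its copy aligned over nad2, of which it may also be only a part. It was 8.59, 8.56 and 8.40 CPM in emb1579-1 and 7.52, 6.14 and 7.57 CPM in emb1579-3, against 6.84 and 6.25 CPM in Col-0. It was called in emb1579-1 with a log2 fold change of 0.38 (SE 0.13, adjusted p = 0.0445), a call that was lost in 6 of the 8 fits that leave out 1 library. ATMG00990, described as subunit 3, ran from 8.54 to 18.8 CPM in emb1579-1 and from 8.33 to 11.6 CPM in emb1579-3, against 10.3 and 11.1 CPM in Col-0, and overlapped in every comparison. Apocytochrome b (ATMG00220), the membrane subunit of complex III, had 6 to 13 counts per library in emb1579-1 and 9 to 15 in emb1579-3, against 14 and 19 in Col-0, too few to place it. Cytochrome c oxidase subunit 3 (ATMG00730) was 28.1, 22.7 and 25.3 CPM in emb1579-1 and 23.7, 24.04 and 27.3 CPM in emb1579-3, against 25.2 and 20.8 CPM in Col-0, and was not called in either line (adjusted p = 0.413 and 0.481). ATMG01280, described as a transmembrane domain like that of cytochrome c oxidase subunit II, was 25.8, 20.4 and 19.4 CPM in emb1579-1 and 19.2, 19.3 and 20.6 CPM in emb1579-3, against 16.8 and 17.1 CPM in Col-0, with no overlap between either line and Col-0. It was called in emb1579-1 with a log2 fold change of 0.36 (SE 0.11, adjusted p = 0.0272), a call lost without emb1579-1 replicate 1, Col-0 replicate 1 or Col-0 replicate 2, and not in emb1579-3 (0.22, adjusted p = 0.187).

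ATP synthase makes ATP from the proton gradient that the respiratory chain builds, and 5 loci were described as its subunits. ATMG01090, described as ATP synthase 9, stood at 61.3, 71.8 and 82.8 CPM in emb1579-1 and 68.6, 65.5 and 83.2 CPM in emb1579-3, against 44.9 and 50.1 CPM in Col-0. No library of either line overlapped with Col-0, and the log2 fold change was 0.60 (SE 0.13, adjusted p = 0.00512) in emb1579-1 and 0.61 (SE 0.13, adjusted p = 0.00409) in emb1579-3. ATMG01080, described as F0-ATPase subunit 9, was 41.9, 51.4 and 54.7 CPM in emb1579-1 and 49.2, 53.3 and 52.1 CPM in emb1579-3, against 48.4 and 46.0 CPM in Col-0, so that emb1579-1 overlapped with Col-0 and each emb1579-3 library lay slightly above it. Its log2 fold changes of 0.06 in emb1579-1 and 0.13 in emb1579-3 (SE 0.10 each) missed the threshold. With its identical nuclear copy AT2G07671 added, the direction turned, to log2 fold changes of -0.33 in emb1579-1 (SE 0.11, adjusted p = 0.0578) and -0.31 in emb1579-3 (SE 0.11, adjusted p = 0.0672). That copy had 467 to 484 counts per library in emb1579-1 and 403 to 553 in emb1579-3, against 735 and 1951 in Col-0. Whether the 2 loci differ from each other in their change was not tested. The annotation places the nuclear copies of these 2 loci next to each other on chromosome 2 of TAIR10.1. They lie at 3249396 to 3251545 for ATMG01090 and at 3251566 to 3252341 for ATMG01080. The copy of ATMG01080 aligned over the gene annotated as atp9 in the mitochondrial genome. The copy of ATMG01090 aligned over 59.3% of its length and was matched to no protein gene annotated there. That ATMG01090 encodes a subunit thus rests on its description alone. ATP synthase subunit 1 (ATMG01190), part of the catalytic head, ran from 15.1 to 18.4 CPM in emb1579-1 and from 15.4 to 25.4 CPM in emb1579-3, against 14.6 and 15.0 CPM in Col-0, and was not called (adjusted p = 0.514 and 0.141). Subunit 8 (ATMG00480) ran from 39.9 to 59.8 CPM in emb1579-1 and from 37.7 to 39.9 CPM in emb1579-3, against 40.1 and 44.5 CPM in Col-0, and was not called either (adjusted p = 0.435 and 0.594). The loci of cytochrome c biogenesis, ATMG00180 and ATMG00960, had log2 fold changes of 0.06 to 0.21 in the 2 lines and did not pass the test, while ATMG00900 had 0 counts in all 8 libraries.

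**Figure D2:**
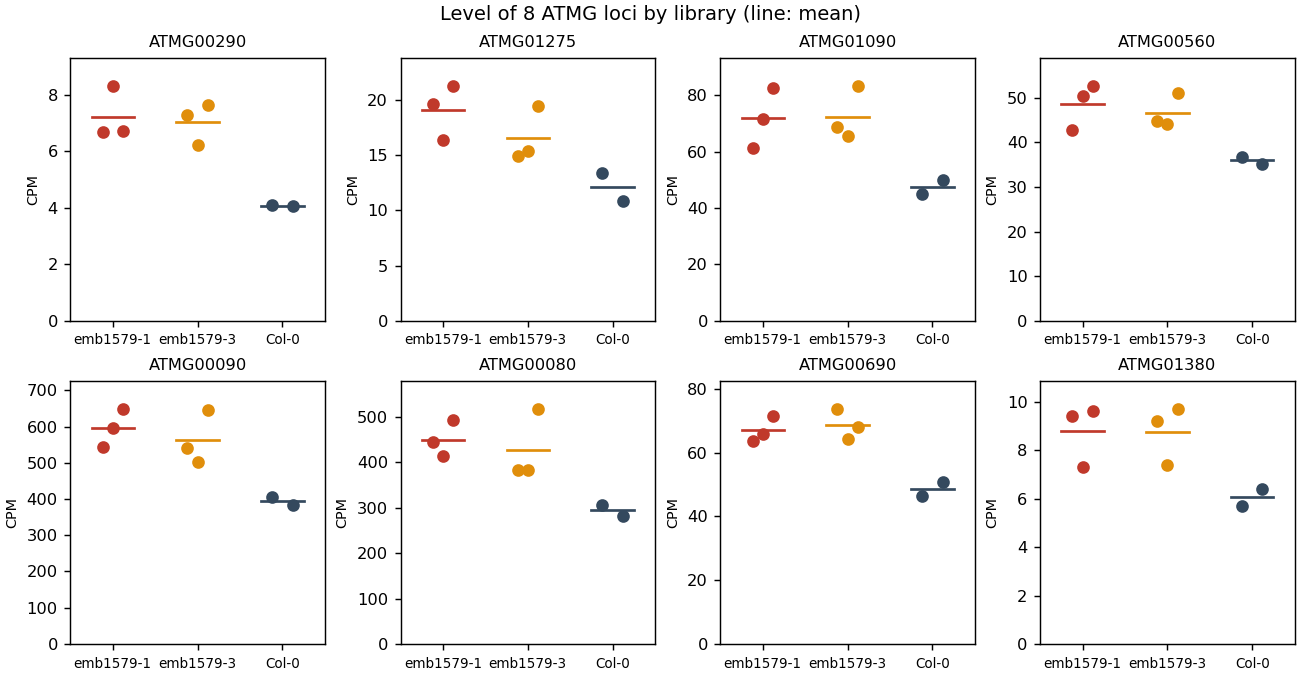
CPM of 8 ATMG loci in each library, with emb1579-1, emb1579-3 and Col-0 from left to right, points for libraries and a line for the mean. In each panel the 6 libraries of the 2 lines lie above the 2 libraries of Col-0, as for ATMG00290 with 6.23 CPM or more in the lines and at most 4.11 CPM in Col-0.

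Loci that no note describes were 55 of the 88 tested and held 16 of the 25 calls in emb1579-1 and 10 of the 16 in emb1579-3. ATMG00090 stood at 545, 597 and 648 CPM in emb1579-1 and 540, 504 and 647 CPM in emb1579-3, against 407 and 385 CPM in Col-0. ATMG00080 stood at 445, 413 and 493 CPM in emb1579-1 and 383, 384 and 517 CPM in emb1579-3, against 307 and 283 CPM in Col-0. Both loci were above Col-0 in all 6 libraries of the lines. The log2 fold change of ATMG00090 was 0.59 in emb1579-1 (SE 0.11, adjusted p = 0.00111) and 0.51 in emb1579-3 (SE 0.11, adjusted p = 0.00324). For ATMG00080 it was 0.61 in emb1579-1 (SE 0.13, adjusted p = 0.00310) and 0.54 in emb1579-3 (SE 0.13, adjusted p = 0.00662), the second of which was lost without Col-0 replicate 2. ATMG00690 was 63.5, 65.9 and 71.6 CPM in emb1579-1 and 73.6, 64.3 and 68.0 CPM in emb1579-3, against 46.5 and 50.8 CPM in Col-0. ATMG01380 was 9.43, 7.31 and 9.63 CPM in emb1579-1 and 9.20, 7.39 and 9.70 CPM in emb1579-3, against 5.71 and 6.41 CPM in Col-0. Neither locus overlapped with Col-0, and their log2 fold changes were 0.46 and 0.50 for ATMG00690 and 0.53 and 0.53 for ATMG01380 in emb1579-1 and emb1579-3. In each line the call of ATMG01380 was lost in 3 of the 8 fits that leave out 1 library, among them the fit without Col-0 replicate 1.

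Some loci passed the test in 1 line and missed it in the other. ATMG00285 was 49.1, 47.1 and 48.8 CPM in emb1579-1 and 41.2, 34.5 and 39.2 CPM in emb1579-3, against 35.3 and 31.5 CPM in Col-0. It rose by 0.53 (SE 0.09, adjusted p = 0.000405) in emb1579-1 on the log2 scale. ATMG00060 was 116, 125 and 108 CPM in emb1579-1 and 100, 88.6 and 99.6 CPM in emb1579-3, against 85.6 and 86.0 CPM in Col-0, and rose by 0.44 (SE 0.09, adjusted p = 0.00220) in emb1579-1. In the other direction, ATMG00590, described as a cytochrome b/b6 protein, was 1.49, 1.28 and 1.89 CPM in emb1579-1 and 2.88, 1.87 and 2.06 CPM in emb1579-3, against 1.44 and 1.29 CPM in Col-0. It was called in emb1579-3 (adjusted p = 0.0487) and not in emb1579-1 (adjusted p = 0.702), and the call was lost in 5 of the 8 fits that leave out 1 library, with DESeq2, with nuclear loci as library size, with a replicate block and with the nuclear copy added (adjusted p = 0.0506). None of these loci differed between emb1579-3 and emb1579-1 past the threshold, with adjusted p = 0.0588 for ATMG00285, 0.158 for ATMG00060 and 0.443 for ATMG00590.

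**Figure D3:**
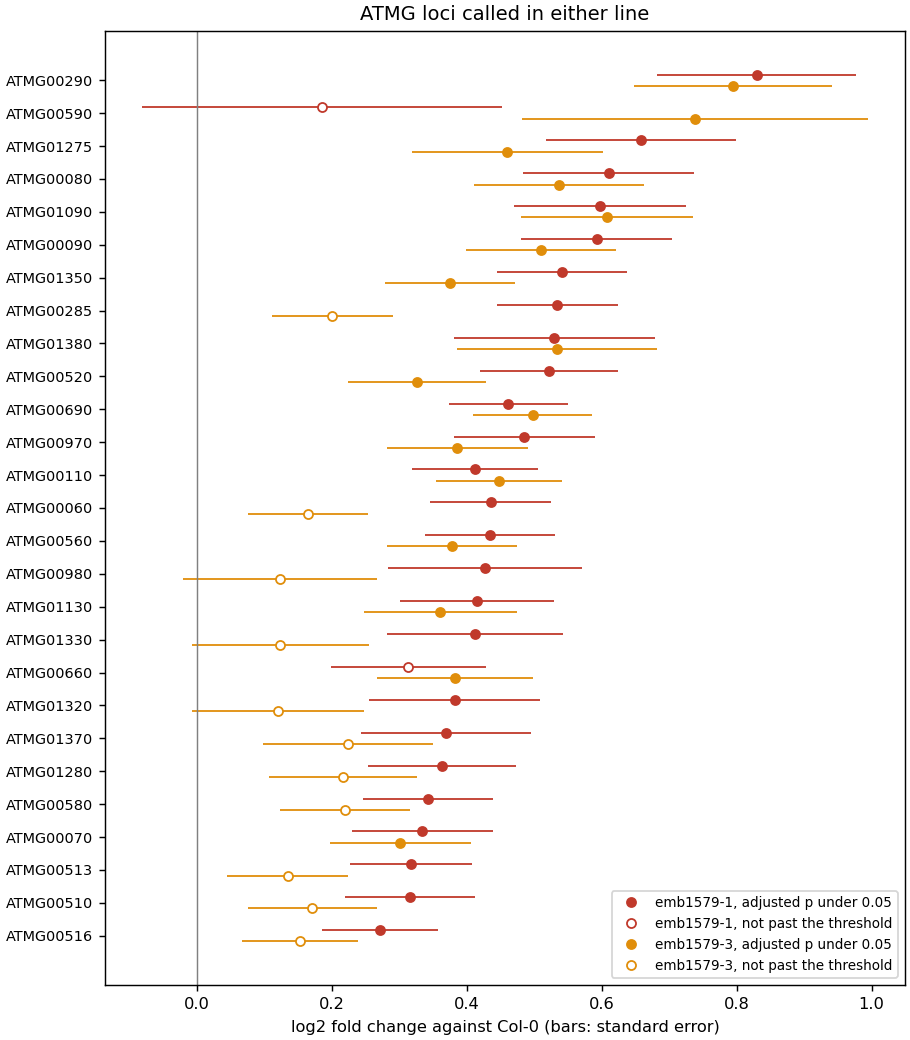
Log2 fold change against Col-0, with its standard error, of the 27 ATMG loci called in at least 1 line, in red for emb1579-1 and in orange for emb1579-3, filled where the adjusted p was under 0.05. Every point lies above 0, with ATMG00290 highest at 0.83 and 0.79.

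In the direct comparison of the lines no member passed the threshold of edgeR, which does not show that the lines are equal. Of the 88 members, 0 were called between emb1579-3 and emb1579-1, where 0.818% of all loci tested were called in either direction. At an unadjusted p under 0.05 there were 10 members, and DESeq2 called 1. No share of all loci is given for either count, so neither is read as a result about the members. The median log2 fold change of the members was -0.05. The lowest was -0.83 for ATMG00540 (SE 0.29, adjusted p = 0.291) and the highest 1.34 for ATMG00410 (SE 0.77, adjusted p = 0.666), described as ATPase subunit 6-1. ATMG00410 was high in 1 library, at 2.18, 0.166 and 0.564 CPM in emb1579-3, against 0.484, 0.428 and 0.247 CPM in emb1579-1. Its identical nuclear copy AT2G07741 held 89.3% of the pair's counts. With that copy added the log2 fold change was 0.17 (SE 0.14, adjusted p = 0.790).

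The members also fell into lists by function, compiled from general knowledge of the mitochondrial genome. The lists held 41 of the 146 members, of which 16 had a functional description that matched the list and the others could not be checked. Their counts stand beside the 8.27% and 9.95% of all loci tested that were called higher in emb1579-1 and emb1579-3. The list of complex I had 14 members tested, with 9 called higher in emb1579-1 and 2 in emb1579-3, and medians of 0.33 and 0.17. Several of these members share a gene name and differ by a letter, as those listed as NAD1A, NAD1B and NAD1C do. Such loci may be parts of 1 gene, so the 14 are not independent genes and the share of all loci is no like measure. The list of ribosomal proteins had 6 of 7 members tested, with 5 called higher in emb1579-1 and 4 in emb1579-3, and medians of 0.51 and 0.52. The lists of complex IV with 3 members and of complex V with 6 members, all tested, had 0 called in either line. These lists leave out ATMG01090, described as ATP synthase 9 and called in both lines, and ATMG01280, described as cytochrome c oxidase subunit II-like and called in emb1579-1. The list of cytochrome c maturation had 1 of 4 tested members called in each line, that of maturase and transport 1 of 2, that of ribosomal RNA 1 of 3, and the 1 member of complex III was not called. No member of any list was called lower. Beside these, 49 tested members were on no list, of which 8 were called higher in emb1579-1 and 7 in emb1579-3, with medians of 0.21 and 0.17.

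Over the 88 tested members the log2 fold change ran from -0.58 to 0.83 in emb1579-1 and from -0.92 to 0.94 in emb1579-3, and both ends lay at loci below 10 CPM in each line. The 3 highest loci were near 0, with log2 fold changes of -0.06, 0.07 and -0.07 in emb1579-1 and -0.02, 0.06 and 0.02 in emb1579-3 for ATMG00020, ATMG01390 and ATMG00030. The called loci had mean levels from 1.78 CPM for ATMG00590 to 534 CPM for ATMG00090. Col-0 replicate 2 was at least 1.5 times replicate 1 for 18 of the 88 tested members and for 0 of the 27 called ones. A wide gap between these 2 libraries itself makes a call harder to reach, so the 0 is no check on Col-0 replicate 2.

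**Figure D4:**
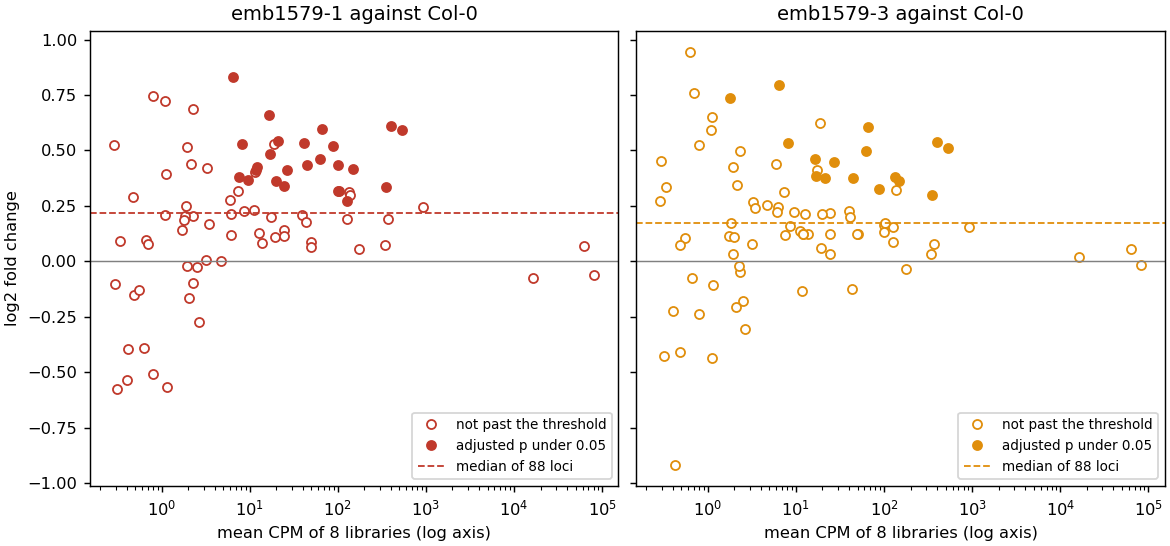
Log2 fold change against Col-0 of the 88 tested ATMG loci over their mean CPM in the 8 libraries (log axis), for emb1579-1 (left) and emb1579-3 (right), with called loci filled and the median as a dashed line. The medians lie at 0.22 and 0.17, and ATMG00020, ATMG01390 and ATMG00030, farthest to the right, lie near 0.

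A separate fit took the sum of ATMG counts as library size, so that it tests the share of each locus among mitochondrial counts. On this scale 13 members were higher in emb1579-1 and 8 in emb1579-3, and 0 were lower, where 4.92% and 5.31% of all loci tested were called higher. Each of these members was also called on the scale of all counts, and 7 were called in both lines. ATMG00290 took 0.00441% of ATMG counts in emb1579-1 and 0.00425% in emb1579-3, against 0.00247% in Col-0, and ATMG00090 took 0.362% and 0.340%, against 0.240%. ATMG01090, ATMG00080, ATMG00690, ATMG01275 and ATMG01380 were the other 5 loci called in both lines. Between emb1579-3 and emb1579-1, 0 members were called on this scale, where 0.784% of all loci tested were. At an unadjusted p under 0.05 there were 8 members, without a share of all loci to set beside them. The ATMG sum is almost entirely that of ATMG00020, ATMG01390 and ATMG00030, the first 2 of which are on the list of ribosomal RNA. Against the sum of the other 143 loci, 2 members were called higher and 2 lower in emb1579-1, and 2 higher and 1 lower in emb1579-3, with medians of -0.10 and -0.08. On that scale 2.32% of all loci tested were called higher and 38.8% lower in emb1579-1, and 3.12% higher and 27.6% lower in emb1579-3. For the fits below that leave out 1 library no share of all loci is given. The 13 calls in emb1579-1 became 3 without Col-0 replicate 1 and 4 without Col-0 replicate 2, with 1 of those 3 lower. The 8 in emb1579-3 became 1 without emb1579-3 replicate 3, 2 without Col-0 replicate 1 (1 of them lower) and 5 without Col-0 replicate 2, and became 17 without emb1579-3 replicate 2 and 15 without emb1579-1 replicate 1.

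The remaining 58 members were not tested. Of these, 13 had 0 counts in all 8 libraries, which allows up to 0.0800 to 0.125 CPM in a library for a limit of 3 counts, and the highest mean among the 58 was 0.252 CPM. A count of 0 at the ATMG locus did not mean that the pair had none, as ATMG00900 had 0 counts while its nuclear copies AT2G07681 and AT2G07771 had 3124 and 285. How reads that match several places were counted is not stated in the labels.

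The split of counts between an ATMG locus and its nuclear copy differed from pair to pair. In the 55 pairs, the nuclear gene was at least 99.0% identical to the TAIR10.1 mitochondrial genome over its aligned length, and in 28 pairs it was 100% identical. Most of a pair's counts lay at the nuclear locus in 25 pairs. The nuclear share was over 90% in 18 pairs and under 10% in 17 pairs. Apocytochrome b had 93 counts at ATMG00220 over the 8 libraries and 39444 at the copy AT2G07727. Ribosomal protein L5 had 24 counts at ATMG00210 and 7318 at AT2G07725, and ATP synthase subunit 1 had 3958 at ATMG01190 and 127437 at AT2G07698. The reverse held for ATMG00180, described as cytochrome c biogenesis, with 4399 counts and 12 at AT2G07815. It also held for ATP synthase subunit 8, with 9755 at ATMG00480 and 239 at AT2G07707. AT2G07815 was matched to a transfer RNA gene of the mitochondrial genome and to no protein gene, so what its pair encodes rests on the description alone. AT2G07815 also overlaps AT2G07723, a nearly identical nuclear locus with 523 to 834 counts per library. Reads that fit both copies equally well cannot be told apart by sequence.

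The first 120 bases of the apocytochrome b coding sequence are shown because no base separates the 2 places, from chromosome 2 of TAIR10.1 at chr2:3450863-3450982, plus strand, and from its mitochondrial genome at 182739 to 182858, minus strand, where the annotated gene is cob.
Apocytochrome b, chromosome 2 copy AT2G07727: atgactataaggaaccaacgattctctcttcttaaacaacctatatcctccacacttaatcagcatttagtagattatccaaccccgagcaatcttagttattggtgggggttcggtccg
Apocytochrome b, mitochondrial genome: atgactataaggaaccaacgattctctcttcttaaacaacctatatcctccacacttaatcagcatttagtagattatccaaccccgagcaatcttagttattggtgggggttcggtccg
For ATP synthase subunit 1, 81 bases of the gene AT2G07698 around the 1 base that differs are shown, with that base in capitals. They come from chr2:3361888-3361968, plus strand, and from the mitochondrial genome at 69158 to 69238, minus strand. Whether this stretch lies in the coding sequence of the subunit was not checked, so the 2 labels name the pair and not the stretch.
ATP synthase subunit 1, chromosome 2 copy AT2G07698: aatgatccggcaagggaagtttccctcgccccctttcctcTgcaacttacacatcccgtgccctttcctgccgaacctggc
ATP synthase subunit 1, mitochondrial genome: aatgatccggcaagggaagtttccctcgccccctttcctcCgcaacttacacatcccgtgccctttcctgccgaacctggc

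Counting each pair as 1 gene gave a level for genes that the ATMG locus alone had missed. Apocytochrome b then stood at a mean of 175 CPM in emb1579-1 and 172 CPM in emb1579-3, against 172 CPM in Col-0, with log2 fold changes of 0.02 and -0.0013 (SE 0.11 each) that missed the threshold. ATP synthase subunit 1 stood at 616 CPM in emb1579-1 and 587 CPM in emb1579-3, against 519 CPM in Col-0, and was not called (adjusted p = 0.0735 and 0.195). Ribosomal protein L5, which had too few counts at ATMG00210 to be tested, stood at 36.1 CPM in emb1579-1 and 30.8 CPM in emb1579-3, against 29.4 CPM in Col-0. It was called higher in emb1579-1, with a log2 fold change of 0.29 (SE 0.09, adjusted p = 0.0289), and not in emb1579-3. The sum of ATMG00290 and its copy kept log2 fold changes of 0.83 and 0.80. Of 47 pair sums tested, 11 were called higher in emb1579-1 and 6 in emb1579-3, and 0 were lower. In the same fit 8.27% and 9.97% of all loci were called higher and 9.54% and 10.3% lower, so that the 6 in emb1579-3 lie near the share of all loci.

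**Figure D5:**
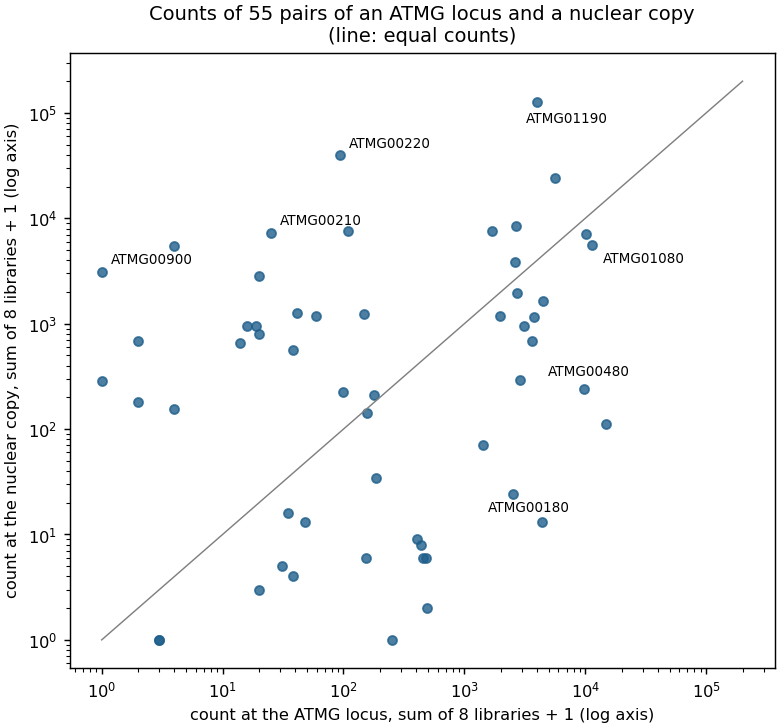
Counts summed over the 8 libraries at the ATMG locus and at its nuclear copy for 55 pairs, each plus 1 on log axes, with a line at equal counts. ATMG00220, ATMG00210 and ATMG01190 lie far above the line, with 39444, 7318 and 127437 counts at the nuclear copy, and ATMG00180 and ATMG00480 lie far below it.

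A wider search by blastn found 182 nuclear genes that matched the mitochondrial genome with at least 95% identity over at least 90% of their length, of which 180 lay on chromosome 2 and 127 were in the count table. They held 0.208%, 0.221% and 0.230% of all counts in emb1579-1 and 0.200%, 0.188% and 0.225% in emb1579-3, against 0.170% and 0.177% in Col-0. Both lines were above Col-0 in every library, as for the 143 ATMG loci. Counts at both sets of loci can come from the same transcripts, so this is not a second, independent observation. Of these nuclear loci 73 were tested, of which 14 were called higher in emb1579-1 and 9 in emb1579-3, and 0 lower, with medians of 0.28 and 0.21. Of all loci tested 8.27% and 9.95% were called higher, a share to which the 9 in emb1579-3 lie close. Relative to their sum with the 143 ATMG loci, they held 28.3% to 28.9% of counts in emb1579-1 and 28.3% to 28.7% in emb1579-3, against 29.4% and 29.8% in Col-0.

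Nuclear genes whose proteins serve the mitochondrial genome or join its products in the respiratory complexes were counted from lists of 53 genes, all tested. In emb1579-1, 8 were called higher and 0 lower, and in emb1579-3, 15 were called higher and 0 lower, with medians of 0.15 and 0.18. Over all loci tested 8.27% and 9.95% were called higher, and several of the shorter lists below lie near that share. Both counts are set against the same Col-0 libraries. Of 8 nuclear genes of ATP synthase, 3 were higher in emb1579-1 and 6 in emb1579-3. ATP5, the delta subunit, stood at 79.3 CPM in emb1579-1 and 86.1 CPM in emb1579-3, against 64.9 CPM in Col-0, with log2 fold changes of 0.29 (SE 0.08, adjusted p = 0.0175) and 0.41 (SE 0.08, adjusted p = 0.00150). ATP3, the gamma subunit, was higher by 0.27 (SE 0.08) and 0.32 (SE 0.08) in emb1579-1 and emb1579-3 on the log2 scale. Of 9 genes of complex III, 2 and 3 were higher, among them CYTC-1, a cytochrome c, which carries electrons from complex III to complex IV. For complex I, 1 and 2 of 12 genes were higher, with the gamma carbonic anhydrase AT5G66510 in both lines at 0.36 and 0.36. SDH1-1, the flavoprotein subunit of succinate dehydrogenase, was the 1 gene of 3 of complex II that was higher, and 0 of 9 genes of complex IV were called.

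Among 7 nuclear genes of mitochondrial transcription and DNA maintenance, 1 was higher in emb1579-1 and 2 in emb1579-3. AT5G14580, annotated as a polyribonucleotide nucleotidyltransferase, an enzyme that degrades RNA from its end, stood at 10.96 CPM in emb1579-1 and 11.5 CPM in emb1579-3, against 7.02 CPM in Col-0. Its log2 fold change was 0.64 (SE 0.15, adjusted p = 0.00726) in emb1579-1 and 0.71 (SE 0.15, adjusted p = 0.00306) in emb1579-3. MGP3, listed as a mitochondrial RNA polymerase, was higher in emb1579-3 by 0.32 (SE 0.11, adjusted p = 0.0446) on the log2 scale. Of 5 nuclear genes for the splicing of mitochondrial introns, 0 were called in emb1579-1 and 1 in emb1579-3, AT5G46920, annotated as an intron maturase, with a log2 fold change of 0.34 (SE 0.11, adjusted p = 0.0368).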

How the data were processed

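Whole-number read counts per locus for 33602 loci in 9 libraries were used as deposited by the authors. Per the submitters' processing notes the tools were FastQC, HISAT2, Cufflinks and Cuffdiff on TAIR10. The sources used here do not give versions, the counting tool, the strand setting, the rule for reads that match several places, or whether ribosomal RNA was depleted, so counts of overlapping or near-identical loci are uncertain. Libraries of 1 genotype are biological replicates by the series' design text.

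From these counts, edgeR 4.0.16 in R 4.3.3 (TMM factors, default expression filter, robust quasi-likelihood F-test, genotype as the only term) was fitted on the whole table of 8 libraries, with Benjamini-Hochberg adjustment over 20668 loci and a threshold of 0.05. The fit had 5 residual degrees of freedom and a biological coefficient of variation of 0.0904. Standard errors (SE) were obtained by dividing a fold change's size on the log2 scale by the root of its F. Library shares were compared by exact two-sided permutation tests in scipy 1.17.1. DESeq2 1.42.0 was an alternative. Nuclear copies came from notes in the TAIR10.1 annotation and from blastn 2.17.0, with sequences and coordinates from RefSeq's TAIR10.1, and no coordinates of ATMG loci in the build used for counting are given. The scripts were tested on simulated counts.

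Named loci were the 10 with the highest share of ATMG counts, the 8 highest called fold changes per line on each scale, and the members of the lists, with up to 2 genes of smallest adjusted p per nuclear list. ATMG00540 and the pair sums were named after their values were seen. The members, the lists and the omission of the library labelled Col-0 replicate 3 were chosen with earlier results of these data known.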

Additional observations from a re-analysis of the deposited data

Results flagged for a closer look

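The library labelled Col-0 replicate 3, which no comparison uses, had a signal at ATMG loci far above that of the other libraries. ATMG loci took 53.6% of its 1179413 counts (95% Wilson interval 53.5% to 53.7%, counting error only), against 15.8% and 15.9% in the other 2 Col-0 libraries. Of its 631897 ATMG counts, 628442 stood at ATMG00030, which held 99.5% of them, against a mean of 10.09% in the other 2 Col-0 libraries. ATMG00020 had 60 counts and ATMG01390 45, which came to 0.0095% and 0.0071% of its ATMG counts. Its EMB1579 level, at 1.70 CPM of unscaled counts, went against its label, with 45.2 and 48.6 CPM in the other 2 Col-0 libraries and 1.06 to 2.10 CPM in emb1579-3. In a library of this size that level rests on very few reads and does not establish a genotype. What made this library differ was not tested.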

How the results depend on the processing

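With all 9 libraries, 0 members were called against Col-0 in either line, the ATMG share of all counts was 11.6 percentage points lower than in Col-0 in emb1579-1 (a difference of -11.6) and in emb1579-3 (-11.6), and 7 fold changes turned negative: ATMG00110 at -4.09 and -4.06, ATMG01350 at -2.05 and -2.22 in emb1579-1 and emb1579-3, ATMG01280 at -0.72 and ATMG01370 at -0.34 in emb1579-1, and ATMG01275 at -0.076 in emb1579-3. By construction this adds a library of 1179413 counts, labelled Col-0. Leaving out each replicate in turn gave 11 to 27 calls in emb1579-1, 7 to 19 in emb1579-3 and 0 to 1 between the lines. On the scale of ATMG counts it gave 3 to 19, 1 to 17 and 0 to 1. The difference in ATMG share between emb1579-3 and emb1579-1, 0.03 percentage points, ran from -0.75 to 0.69 and was -0.0347 without the 3 highest loci, while against Col-0 it ran from 0.29 to 1.72 for emb1579-1 and from 0.54 to 1.32 for emb1579-3. Between the lines, 1 of 76 members with an adjusted p was called with DESeq2 and 2 without a filter on low counts. A stricter filter, no filter, no TMM factors, nuclear loci as library size, DESeq2 and added nuclear copies left 18 to 30 calls in emb1579-1 and 11 to 20 in emb1579-3, the upper values without a filter. On the scale of ATMG counts, leaving the ribosomal RNA list out of the sum gave 4 calls in emb1579-3, and leaving out the 3 highest loci gave 4 and 3 calls in emb1579-1 and emb1579-3. No share of all loci called is given beside these counts, and the causes were not tested.

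With replicate number as a replicate block there were 20, 13 and 1 calls for emb1579-1 and emb1579-3 against Col-0 and between the lines, and 6, 1 and 0 on the scale of ATMG counts. Same-numbered libraries deviated together with correlations of -0.12 to 0.16, and between the lines replicates 1 and 3 correlated best with their own number and replicate 2 did not, so the numbers were not taken to pair the libraries.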
